A study of Mus musculus with 4 samples.

Results

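The complement components measured here are 9 genes of the classical and alternative pathways: C1qa, C1qb, C1qc, C1s, C2, C3, C4b, Cfb and Serping1. They were found by gene name in the array annotation, where older aliases (C1qg for C1qc, C4 for C4b) were also searched, and 12 of the 41174 non-control probes matched, none of them under those aliases. They stand for 9 of 27586 genes or named transcripts on the array, and all 9 were well above background on all 4 arrays through their brightest probe. The study measured messenger RNA in skeletal muscle of mice with free access to food, at 10 weeks of age, on 1-colour Agilent arrays with 1 array per genotype. The 4 genotypes were ob/ob TBP-2-/- (leptin-deficient mice that also lack Txnip, the gene of thioredoxin-interacting protein, named TBP-2 in the labels), TBP-2-/- (lean mice that lack Txnip), ob/ob (leptin-deficient mice with Txnip) and WT (wild type). The design asks what loss of Txnip does to muscle transcripts on a lean and on a leptin-deficient background. Not stated in the labels are the muscle sampled, the mice's strain and sex, the number of mice behind an RNA sample, and the stretch of Txnip that was deleted. The genotype field of the ob/ob sample has an extra letter, and its title was used. With 1 array a genotype there is no replicate check, and higher and lower describe these arrays.

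Complement is a cascade of plasma and tissue proteins that marks microbes, dying cells and immune complexes for removal. In the classical pathway C1q, built from the A, B and C chains, recognises a surface, the protease C1s that travels with it cleaves C4 and C2, and the C4b and C2 fragments form an enzyme that cleaves C3. In the alternative pathway C3b pairs with factor B (Cfb), which factor D (Cfd) cuts, and C1 inhibitor (Serping1) blocks the proteases of the C1 complex. The liver makes most plasma complement, while C1q comes mainly from macrophages, and fibroblasts and fat cells also make several components.

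Promoter sequences are shown for 2 neighbouring C1q genes, whose signals moved together over the arrays, for C3, whose pattern differed from theirs, and for the C1s gene. They are RefSeq windows of 250 bases before to 50 after a transcription start (GRCm38.p6, minus strand, printed 5′ to 3′). The table held 4 of the 9 genes by symbol, with C1s under its current name C1s1, and C1qa, C2, C4b, Cfb and Serping1 are not shown. Capitals mark the only matches, on either strand, to 5 motifs: AGGAAGT (core bound by ETS factors such as PU.1), TTGCNNAA (C/EBP type), TTCNNNGAA (STAT type), AAANNGAAA (interferon response type) and GGNNTTNCC (NF-kappaB type).
C1qb, chr4:136886151-136886450: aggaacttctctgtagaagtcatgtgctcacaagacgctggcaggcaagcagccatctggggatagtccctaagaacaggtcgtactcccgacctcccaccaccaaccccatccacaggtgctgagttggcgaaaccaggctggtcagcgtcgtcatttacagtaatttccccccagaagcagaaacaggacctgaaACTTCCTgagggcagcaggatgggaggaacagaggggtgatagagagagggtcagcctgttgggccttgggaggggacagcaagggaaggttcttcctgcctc
C1qc, chr4:136892865-136893164: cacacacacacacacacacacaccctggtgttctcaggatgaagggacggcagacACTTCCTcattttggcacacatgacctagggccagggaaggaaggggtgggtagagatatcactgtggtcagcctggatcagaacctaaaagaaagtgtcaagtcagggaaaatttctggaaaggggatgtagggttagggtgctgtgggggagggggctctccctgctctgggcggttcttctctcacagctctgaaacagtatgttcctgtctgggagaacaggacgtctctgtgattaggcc
C1s1, chr6:124542310-124542609: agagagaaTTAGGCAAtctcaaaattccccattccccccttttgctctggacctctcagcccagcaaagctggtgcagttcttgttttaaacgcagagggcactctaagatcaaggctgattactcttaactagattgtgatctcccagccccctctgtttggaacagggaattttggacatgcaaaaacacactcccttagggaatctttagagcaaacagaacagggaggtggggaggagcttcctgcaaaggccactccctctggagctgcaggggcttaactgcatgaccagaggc
C3, chr17:57228087-57228386: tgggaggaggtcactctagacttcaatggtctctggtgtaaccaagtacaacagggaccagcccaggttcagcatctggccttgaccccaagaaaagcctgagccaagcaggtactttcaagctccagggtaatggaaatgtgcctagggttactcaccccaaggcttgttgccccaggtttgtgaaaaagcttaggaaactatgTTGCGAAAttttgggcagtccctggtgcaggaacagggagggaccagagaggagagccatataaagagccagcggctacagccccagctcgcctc
Both C1q windows hold AGGAAGT on the opposite strand, at position -53 in C1qb and -195 in C1qc, and 9.35% of 32851 RefSeq promoter windows of the same length hold it. The C/EBP-type motif was at -45 in C3 and at -242 in this C1s1 window, and 10.8% of windows hold it. A window of C1s1 from another start, chr6:124542272-124542571, had no match. The STAT-type, interferon response-type and NF-kappaB-type letters, held by 8.30%, 10.6% and 16.0% of windows, were not in these windows, and the matches shown do not overlap.

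The 4 arrays shared 1 slide and 1 scan, with 22678 to 24223 probes well above background and no saturated spot. Values are scaled signals, the processed signal divided by the array's 75th percentile, which was 273 to 321 signal units. All 13 skeletal muscle markers were well above background on every array. Txnip had a scaled signal of 0.607 on ob/ob TBP-2-/-, 2.71 on TBP-2-/-, 41.0 on ob/ob and 45.2 on WT, so Txnip was lowest on both arrays labelled TBP-2-/-. Lep had 2.09 and 0.344 on the ob/ob TBP-2-/- and TBP-2-/- arrays, and 0.769 and 0.124 on the ob/ob and WT arrays, so transcript of the leptin gene was highest on the ob/ob arrays. Scaling by spike-in RNA in place of the 75th percentile moves every log2 difference by 0.25 in TBP-2-/- against WT, by -0.51 in ob/ob TBP-2-/- against ob/ob, by 0.64 in ob/ob against WT and by -0.11 in ob/ob TBP-2-/- against TBP-2-/- muscle. That scaling moves the median over all genes alike, to 0.17, -0.48, 0.60 and -0.07 in that order. A gene thus keeps its place among all genes in a comparison, though its sign may change. All differences here are relative to the array's 75th percentile, unless spike-in scaling is named.

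On lean muscle, all 9 complement genes had a higher signal without Txnip. The highest differences were those of C4b, the classical pathway's C4 (2.07-fold), Cfb, factor B of the alternative pathway (1.88-fold), and C2, the protease of the classical C3 convertase (1.74-fold), while C3 (1.13-fold) differed least. In TBP-2-/- against WT muscle 5 of 9 (C1qa, C1qb, C2, C4b, Cfb) were 1.5-fold or more higher, where 5.92% of 15209 genes were, and 1 of 9 (C4b) was 2-fold or more higher, where 1.74% were. None was 1.5-fold or more lower (3.27% of genes, and 0.881% at 2-fold). The member median was 0.61 on the log2 scale, against -0.07 over all genes, of which 39.7% were higher.

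On the leptin-deficient background, C2 (1.73-fold) and Cfb (1.65-fold) again had the highest differences. In ob/ob TBP-2-/- against ob/ob muscle 8 of 9 genes were higher, but 4 of 9 with spike-in scaling, which turned C1qa, C1qb, C1qc and C1s. C2 and Cfb were 1.5-fold or more higher (2 of 9, with 6.51% of 15479 genes). With spike-in scaling 0 of 9 were, with 1.43% of genes, and C2 and Cfb had 0.28 and 0.22 on the log2 scale. No gene was 2-fold higher (1.85% of genes), and none was 1.5-fold or more lower (3.66% of genes, and 0.82% at 2-fold). The median was 0.35, against 0.03 over all genes, of which 54.4% were higher. With spike-in scaling the member median was -0.15, against -0.48 over all genes. The lean and the leptin-deficient comparison share no array. Of 14928 genes measured in both, 1.71% were 1.5-fold or more higher in both, as were 2 of the 9 complement genes, and 24.8% were higher in both, as were 8 of the 9.

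**Figure D1:**
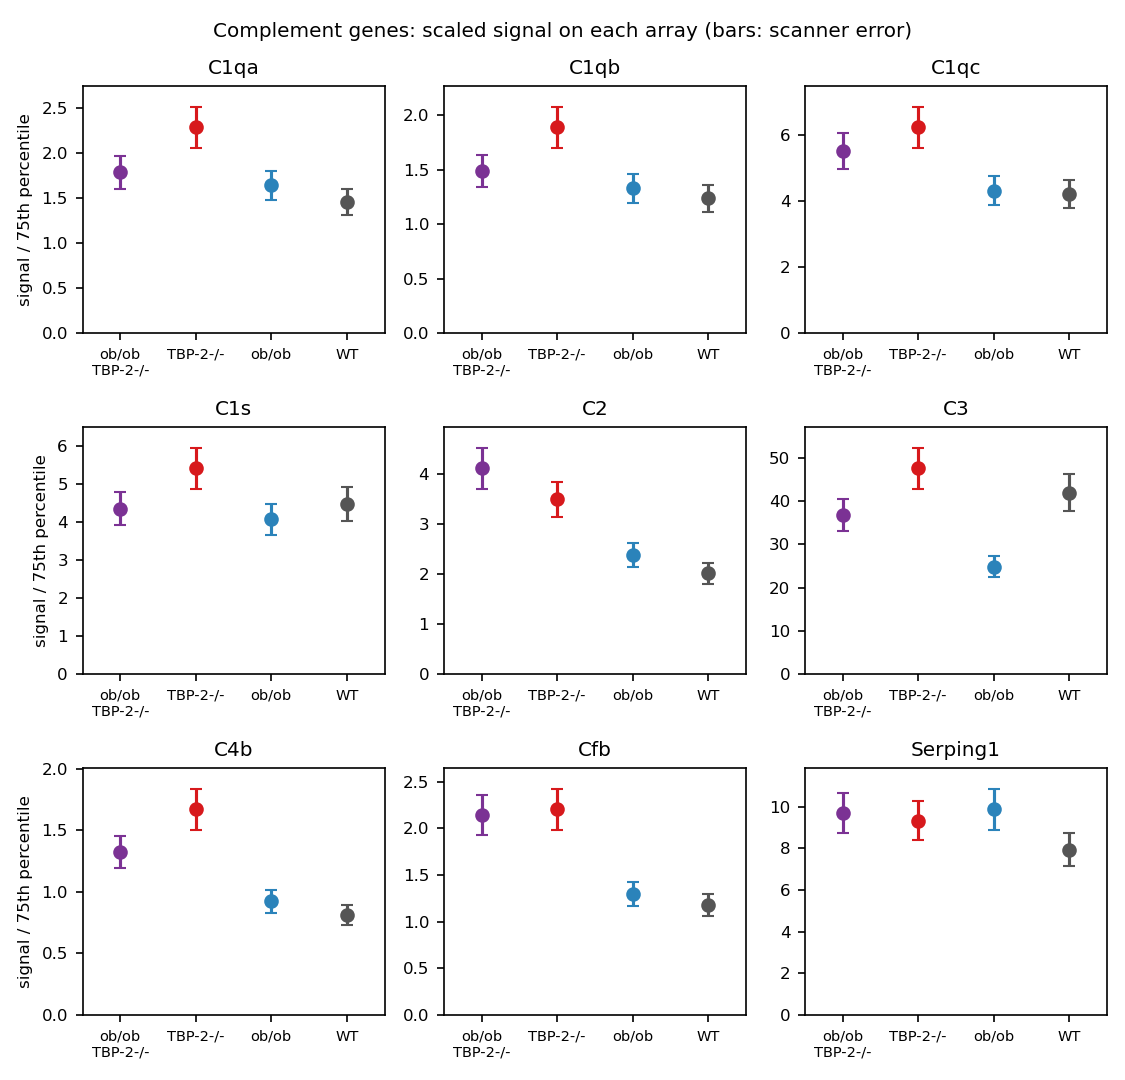
Scaled signal (processed signal over the array's 75th percentile, linear axis from 0) of the brightest probe of each gene on the ob/ob TBP-2-/-, TBP-2-/-, ob/ob and WT arrays, with 1 point per array and bars of 1 standard error from the scanner's error model. C2, C4b and Cfb were higher on both arrays without Txnip than on both arrays with it, and C3 was lowest on ob/ob.

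C1qa, C1qb and C1qc, which encode the 3 chains of C1q and lie side by side on chromosome 4, had nearly the same pattern. C1qa (probe at chr4:136168570-136168629, mm8, minus strand) had a scaled signal of 1.78 on ob/ob TBP-2-/-, 2.29 on TBP-2-/-, 1.64 on ob/ob and 1.45 on WT. C1qb (chr4:136152739-136152798) had 1.49 on ob/ob TBP-2-/-, 1.89 on TBP-2-/-, 1.33 on ob/ob and 1.24 on WT. C1qc (chr4:136161927-136161986) had 5.50 on ob/ob TBP-2-/-, 6.22 on TBP-2-/-, 4.30 on ob/ob and 4.20 on WT. Each chain was thus highest on TBP-2-/-, next on ob/ob TBP-2-/-, and lowest on WT. The order of the neighbouring ob/ob and WT arrays was not beyond the error of the signals for any chain, nor was that of ob/ob TBP-2-/- and ob/ob for C1qa and C1qb, or that of ob/ob TBP-2-/- and TBP-2-/- for C1qc. TBP-2-/- minus WT was 0.65 ± 0.20 for C1qa, 0.61 ± 0.20 for C1qb and 0.57 ± 0.20 for C1qc (log2, SE of the scanner's error model). Those 3 differences span 0.09 log2 units. The error is modelled, not measured between spots, and holds no variation among mice. It was 0.144 to 0.145 log2 units an array for the brightest probe of each complement gene, whatever its signal. ob/ob TBP-2-/- minus ob/ob was smaller, at 0.12 ± 0.20, 0.16 ± 0.20 and 0.35 ± 0.20 for C1qa, C1qb and C1qc, and below 0 for all 3 with spike-in scaling (-0.39, -0.34 and -0.15). Of 5 listed genes in the wider region of the C1q genes on chromosome 4, Cdc42 differed by -0.02 and Wnt4 by -0.64 between TBP-2-/- and WT muscle. Ephb2 was at least 1.86-fold higher, being well above background on the TBP-2-/- array and not on WT. Epha8 and Zbtb40, which lie closer to the C1q genes, have no difference, as the probe used for each was not well above background on any array. In ob/ob TBP-2-/- against ob/ob muscle Cdc42 differed by 0.17, Wnt4 by -0.03 and Ephb2 by 0.24.

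C1s, the protease of the C1 complex that cleaves C4 and C2, has 2 probes on chromosome 6, and they disagreed on the ob/ob background. The brighter (chr6:124496429-124496488, mm8) had 4.35 on ob/ob TBP-2-/-, 5.42 on TBP-2-/-, 4.08 on ob/ob and 4.47 on WT. The other (chr6:124497068-124497127) had 0.922 on ob/ob TBP-2-/-, 1.02 on TBP-2-/-, 1.01 on ob/ob and 0.760 on WT. Both probes were highest on TBP-2-/-, but the lowest array was ob/ob for the brighter probe and WT for the other. TBP-2-/- minus WT was 0.28 ± 0.20 and 0.42 ± 0.21 at the 2 probes, while ob/ob TBP-2-/- minus ob/ob was 0.09 ± 0.20 and -0.12 ± 0.20, opposite in sign and within the error. ob/ob minus WT was -0.13 ± 0.20 at the brighter probe and 0.40 ± 0.21 at the other. Mice also carry the related gene C1s2 nearby, and whether these probes also bind its transcript cannot be told here.

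Serping1, C1 inhibitor, which shuts down C1r and C1s, varied least of the 9 genes. Its probe (chr2:84566650-84568156, mm8, the span of its exons) had 9.71 on ob/ob TBP-2-/-, 9.33 on TBP-2-/-, 9.89 on ob/ob and 7.93 on WT. Only WT stood lower, and the other 3 arrays differed by less than the error. TBP-2-/- minus WT was 0.23 ± 0.20, ob/ob minus WT 0.32 ± 0.20, and ob/ob TBP-2-/- minus ob/ob -0.03 ± 0.20. Its highest and lowest arrays were 1.25-fold apart, a range at percentile 31.7 of all genes.

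C4b, C2 and Cfb lie in the complement cluster of chromosome 17, where Cfb and C2 are direct neighbours. C4b (chr17:34337472-34337531, mm8) had a scaled signal of 1.32 on ob/ob TBP-2-/-, 1.67 on TBP-2-/-, 0.925 on ob/ob and 0.809 on WT. Both arrays without Txnip were above both arrays with it. TBP-2-/- minus WT was 1.05 ± 0.20, at percentile 98.5 of all genes, and ob/ob TBP-2-/- minus ob/ob was 0.52 ± 0.20, at percentile 91.6 (0.01 with spike-in scaling). The C4b probe is also annotated to a transcript of the neighbouring copy C4a, so signal of the 2 cannot be separated by it, and the probe of C4a itself was not well above background on any array.

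C2 has 2 probes, and they gave like differences on loss of Txnip. The brighter (chr17:34470686-34470745, mm8) had 4.11 on ob/ob TBP-2-/-, 3.49 on TBP-2-/-, 2.37 on ob/ob and 2.01 on WT. The other (chr17:34471237-34471412) had 1.02 on ob/ob TBP-2-/-, 1.08 on TBP-2-/-, 0.644 on ob/ob and 0.598 on WT. At both probes the 2 arrays without Txnip were above the 2 with it. TBP-2-/- minus WT was 0.80 ± 0.20 and 0.86 ± 0.21, and ob/ob TBP-2-/- minus ob/ob was 0.79 ± 0.20 and 0.67 ± 0.21. Cfb, whose cut form joins C3b in the alternative C3 convertase (probe chr17:34464613-34464969), had 2.14 on ob/ob TBP-2-/-, 2.20 on TBP-2-/-, 1.30 on ob/ob and 1.18 on WT. Its arrays fell into the same order of genotypes by Txnip, with the 2 arrays of each Txnip genotype within the error of each other. TBP-2-/- minus WT was 0.91 ± 0.20 for Cfb, at percentile 97.9 of all genes, and ob/ob TBP-2-/- minus ob/ob was 0.72 ± 0.20, at percentile 96.0.

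Other genes of that stretch of chromosome 17 did not differ in this way. Of 10 listed neighbours, named here by their position, 8 were measured on every array (Atf6b, Tnxb, Stk19, Dxo, Skiv2l, Nelfe, Zbtb12 and Ehmt2), and 0 were 1.5-fold or more different in any comparison. Between TBP-2-/- and WT muscle they lay between -0.15 (Skiv2l) and 0.29 (Tnxb), and between ob/ob TBP-2-/- and ob/ob muscle between -0.48 (Skiv2l) and 0.16 (Nelfe). Nelfe and Zbtb12, which flank the Cfb and C2 pair, differed by -0.07 and -0.04 between TBP-2-/- and WT muscle. Spike-in scaling would add 0.25 to each lean difference and turn those of Stk19, Dxo, Skiv2l, Nelfe, Zbtb12 and Ehmt2 to the higher side. Its shift in the ob/ob TBP-2-/- against ob/ob comparison would turn Tnxb, Nelfe and Zbtb12 to the lower side. There it would also carry Atf6b, Stk19, Dxo, Skiv2l and Ehmt2 past 1.5-fold lower, where 34.6% of all genes were with that scaling. In ob/ob against WT muscle it would carry all of them but Nelfe past 1.5-fold higher, where 51.7% of all genes were.

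**Figure D2:**
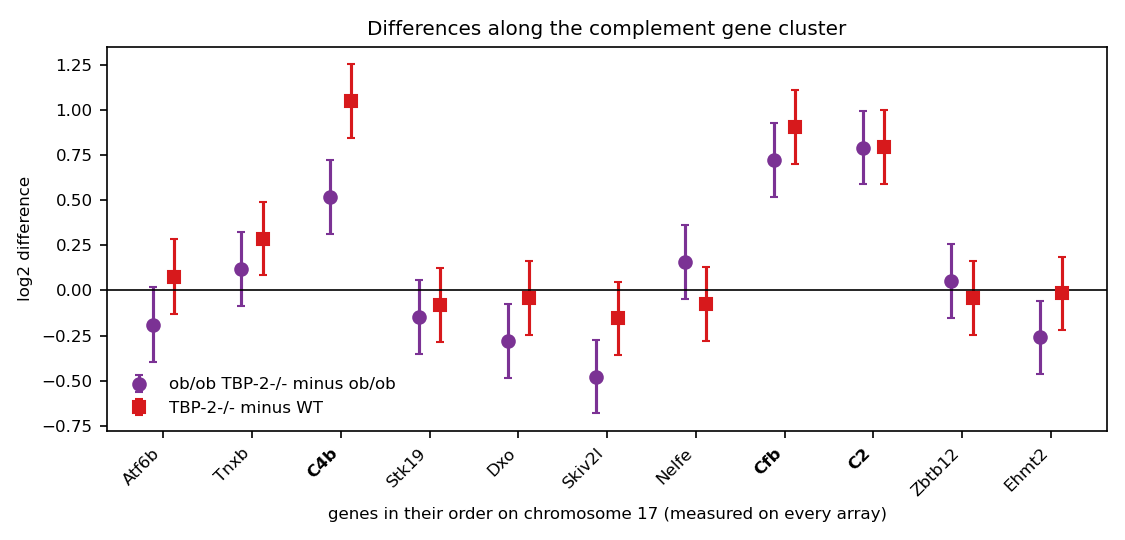
Log2 differences (75th percentile scaling, bars of 1 standard error from the error model) of genes measured on every array, in their order on chromosome 17, for ob/ob TBP-2-/- minus ob/ob (circles) and TBP-2-/- minus WT (squares). C4b, Cfb and C2 lie between 0.52 and 1.05, and the 8 genes around them between -0.48 and 0.29, with spike-in scaling turning 6 of these 8 to the higher side in the lean comparison and 3 to the lower side in the other.

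C3, the protein on which all pathways converge, had the lowest difference of the 9 genes in both comparisons by ob genotype. The brighter C1s probe had the same order of arrays, with smaller differences in those comparisons. The brightest C3 probe (chr17:56889328-56889387, mm8) is printed 10 times on each array, which gives a mean and an SD between spots. The mean scaled signal was 36.8 ± 1.21 on ob/ob TBP-2-/-, 47.6 ± 1.76 on TBP-2-/-, 24.9 ± 0.887 on ob/ob and 42.0 ± 1.62 on WT (SD over 10 spots of 1 hybridisation, no biological replicates). The spots ranged over 34.9 to 39.0 on ob/ob TBP-2-/-, 45.6 to 52.1 on TBP-2-/-, 23.5 to 26.8 on ob/ob and 39.5 to 45.9 on WT. No spot of the ob/ob array reached those of another array, and the TBP-2-/- and WT spots overlapped at their edge. C3 was 1.69-fold lower in ob/ob than in WT muscle (-0.76 ± 0.20, but -0.12 with spike-in scaling and -0.49 by the median of its probes), at percentile 3.41 of all genes, and 1.29-fold lower in ob/ob TBP-2-/- than in TBP-2-/- muscle (-0.37 ± 0.20). Without Txnip it was higher by 0.57 ± 0.20 on the ob/ob background (0.06 with spike-in scaling) and by 0.18 ± 0.20, within the modelled error, on the lean one. That error is not divided by the number of spots, and the SD between C3 spots was smaller, at 0.0475 to 0.0545 log2 units. Another C3 probe (chr17:56910450-56910607) was well above background on the TBP-2-/- array alone, with a scaled signal of 0.0360. A probe for an unnamed transcript on the opposite strand overlaps the bright C3 probe by position and had 0.214, 0.178, 0.144 and 0.218 on the ob/ob TBP-2-/-, TBP-2-/-, ob/ob and WT arrays.

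**Figure D3:**
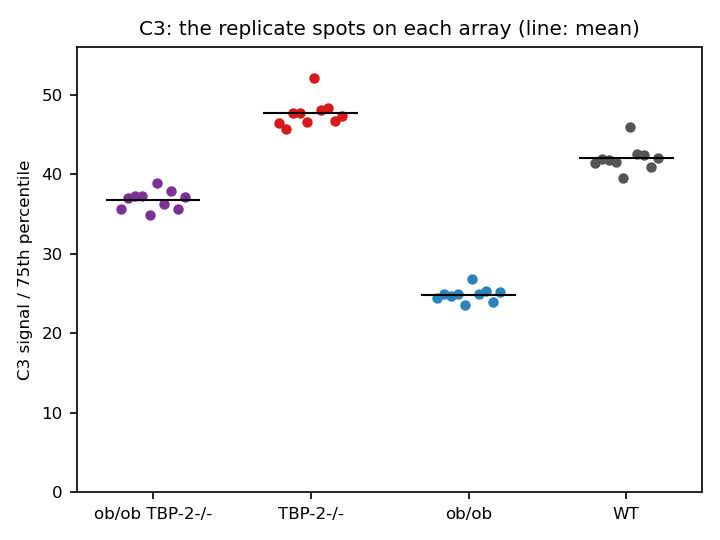
Scaled signal of each of the 10 spots of the brightest C3 probe on the ob/ob TBP-2-/-, TBP-2-/-, ob/ob and WT arrays, with a line at the mean. The ob/ob spots lie at 23.5 to 26.8, below all others, and the TBP-2-/- spots at 45.6 to 52.1.

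The ob/ob genotype itself went with smaller differences in the other 8 genes. In ob/ob against WT muscle 7 of 9 genes were higher, with 45.2% of all genes, and 2 (C3, and C1s by its brighter probe alone) lower. With spike-in scaling 8 were higher and only C3 lower, where the median over all genes was 0.60. C3 was the only gene past 1.5-fold, on the lower side (1 of 9, with 6.64% of 15080 genes), with 0 of 9 on the higher side (6.35% of genes). Spike-in scaling gave 7 of 9 higher by 1.5-fold, where 51.7% of all genes were, and 0 lower, where 0.995% were. The median of a gene's probes gave 0 lower, where 6.92% of all genes were. No gene was 2-fold different either way (1.9% of genes higher, 1.66% lower). Serping1 (0.32) and C2 (0.24 ± 0.20) had the highest differences, and the median was 0.14, against -0.04 over all genes. In ob/ob TBP-2-/- against TBP-2-/- muscle 7 of 9 genes were lower and 2 (C2, Serping1) higher, and with spike-in scaling C2 alone was higher. No gene passed 1.5-fold (6.38% of 15634 genes higher, 4.92% lower) or 2-fold (1.79% higher, 1.57% lower), and the median was -0.32, against 0.04 over all genes. C1qa (-0.36), C1qb (-0.34), C4b (-0.34) and C1s (-0.32), each ± 0.20, were lowest next to C3.

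**Figure D4:**
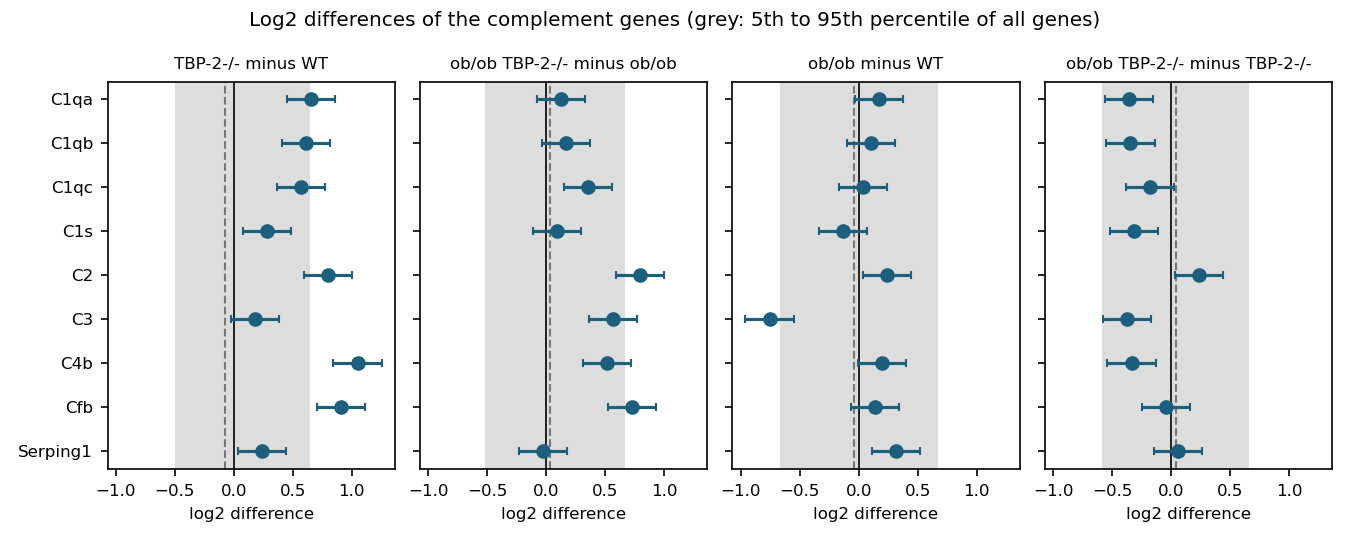
Log2 differences (75th percentile scaling) of the 9 genes in the 4 comparisons named above each panel, with bars of 1 standard error from the error model. The grey band spans the 5th to 95th percentile of all genes and the dashed line is their median, and C4b, Cfb, C2 and C1qa lie above the band in TBP-2-/- minus WT and C2 and Cfb above it in ob/ob TBP-2-/- minus ob/ob. Spike-in scaling turns C1qa, C1qb, C1qc and C1s to below 0 in the ob/ob TBP-2-/- minus ob/ob panel, C1s to above 0 in that of ob/ob minus WT, and Serping1 to below 0 in that of ob/ob TBP-2-/- minus TBP-2-/-.

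Set side by side, the difference on loss of Txnip was smaller on the ob/ob than on the lean background for 8 of 9 genes, as it was for 41.5% of 14928 genes. The difference between backgrounds (ob/ob TBP-2-/- minus ob/ob, less TBP-2-/- minus WT) was -0.53 ± 0.29 for C1qa and C4b, -0.45 ± 0.29 for C1qb, and 0.00 ± 0.29 for C2. C3 had 0.38 ± 0.29, which spike-in scaling turned to -0.37. With that scaling C1qa and C4b had -1.28, C1qb -1.20 and C2 -0.76. No test of this difference was possible with 4 arrays, and its error is that of the scanner's error model. TBP-2-/- was the highest array for 7 of 9 genes, with 14.9% of all genes, and WT the lowest for 7 of 9, with 23.9%.

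An additive model of the TBP-2 and ob genotypes, the only test the 4 arrays allow, called none of the 9 genes for either genotype. With limma and Benjamini-Hochberg adjustment at 0.05, it called 10 of 16136 genes higher (0.062%) and 7 lower (0.0434%) for loss of Txnip, and 25 higher (0.155%) and 29 lower (0.18%) for the ob genotype. By unadjusted p under 0.05, 4 of 9 complement genes were higher without Txnip, where 7.12% of genes were, and 1 was lower with the ob genotype, where 6.10% were. The 4 are C2 (log2 effect 0.79 ± 0.16, limma adjusted p = 0.266), Cfb (0.82 ± 0.17, adjusted p = 0.267), C4b (0.78 ± 0.20, adjusted p = 0.327) and C1qc (0.46 ± 0.17, adjusted p = 0.473). The gene lower with the ob genotype is C3 (-0.56 ± 0.18, limma adjusted p = 0.299). The fit has 1 residual degree of freedom, and its error is how far the arrays depart from additivity, not variation among mice. The calls depend on the background correction and variance model. With normexp background correction C2, C4b and Cfb were called higher without Txnip (adjusted p of 0.00247, 0.00511 and 0.00325 by limma), and C3 lower with the ob genotype (adjusted p = 0.0240). With an intensity trend in the variance C2 and Cfb were called (adjusted p of 0.0264 and 0.0268 by limma).

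Of 49 other complement genes on the array, 28 were measured in TBP-2-/- against WT muscle, of which 5 were 1.5-fold or more higher (5.92% of all genes) and 2 lower (3.27%), with a median of 0.02. In ob/ob TBP-2-/- against ob/ob muscle 5 of 28 were 1.5-fold or more higher (6.51% of all genes) and 0 lower (3.66%), with a median of 0.14, which the spike-in shift would turn below 0. In ob/ob against WT muscle 1 of 27 was higher (6.35% of all genes) and 8 lower (6.64%), with a median of -0.16, which the spike-in shift would turn above 0. In ob/ob TBP-2-/- against TBP-2-/- muscle 1 of 31 was higher (6.38% of all genes) and 5 lower (4.92%), with a median of -0.11.

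Among recognition molecules and proteases, Cfd (adipsin, factor D, which cuts factor B and is made mostly by fat cells) had the largest differences. It had a scaled signal of 12.4 on ob/ob TBP-2-/-, 108 on TBP-2-/-, 5.07 on ob/ob and 52.7 on WT. Both ob/ob arrays were far below both lean arrays, by -3.12 (ob/ob TBP-2-/- minus TBP-2-/-) and -3.38 (ob/ob minus WT), and each array without Txnip was above its counterpart with Txnip, by 1.29 on the ob/ob and 1.03 on the lean background. Fcna, a ficolin of the lectin pathway, was higher without Txnip by 0.75 in lean and 0.39 in ob/ob muscle, the second of which spike-in scaling would turn. Colec12, a scavenger receptor of the collectin family, was higher in ob/ob TBP-2-/- than in TBP-2-/- muscle by 0.70 and in ob/ob than in WT muscle by 1.16. Masp2, the lectin pathway protease that cleaves C4 and C2, was lower in ob/ob TBP-2-/- than in TBP-2-/- muscle by -1.20 and in ob/ob than in WT muscle by -0.96. C4a, Mbl2 and Fcnb were not well above background on any array.

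Of the terminal components that build the membrane attack complex, 3 of 7 were well above background on every array and 4 (Hc, C8a, C8b and C9) on none. C7 was higher without Txnip by 0.62 in lean and 0.94 in ob/ob muscle, at scaled signals under 0.1. C6 was lower in TBP-2-/- than in WT muscle by -1.21 and higher in ob/ob TBP-2-/- than in ob/ob muscle by 0.23, and C8g was lower by -0.75 and -0.28 in those comparisons. The 3 genes thus had no common direction, and spike-in scaling would turn C6 in ob/ob muscle.

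Of 6 membrane regulators measured, 5 were lower in ob/ob TBP-2-/- than in TBP-2-/- muscle (median -0.40, all but Cr1l) and 5 in ob/ob than in WT muscle (median -0.65, all but Cd93), though spike-in scaling would bring the second median to about 0 and turn Cr1l and C1qbp there. Fluid-phase regulators were mixed. Clu (clusterin, which blocks the terminal complex) had a scaled signal of 4.29 on ob/ob TBP-2-/-, 10.9 on TBP-2-/-, 4.68 on ob/ob and 13.5 on WT. The ob/ob arrays were lower by -1.35 without and -1.52 with Txnip. Cfp (properdin, which stabilises the alternative convertase) was lower with the ob genotype by -0.57 without and -0.64 with Txnip, and higher without Txnip by 0.62 on the ob/ob background and 0.55 on the lean one. Spike-in scaling would bring its ob/ob minus WT difference to about 0. The membrane regulators Cd59a and Cd59b, which block the terminal complex, were lower in ob/ob than in WT muscle by -1.47 and -1.26, and in ob/ob TBP-2-/- than in TBP-2-/- muscle by -0.57 and -1.04. Cd55, which speeds decay of the convertases, was lower by -0.81 in ob/ob against WT and by -0.63 in ob/ob TBP-2-/- against TBP-2-/- muscle. Cfi, C4bp, Cpn2, Cd46 and Csmd1 were not well above background on any array.

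Of 10 receptor genes 5 were measured on every array. Itgb2, the beta chain of complement receptors 3 and 4, had 0.268 on ob/ob TBP-2-/-, 0.346 on TBP-2-/-, 0.225 on ob/ob and 0.215 on WT. It was highest on TBP-2-/-, like the C1q genes, with 0.69 for TBP-2-/- minus WT. Its partner Itgam was well above background only on the 2 arrays without Txnip, at least 1.63-fold higher on the ob/ob and at least 1.60-fold higher on the lean background, where the dim side is set at the lowest measurable signal. C5ar1 and Vsig4, receptors on myeloid cells, were not well above background on any array.

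**Figure D5:**
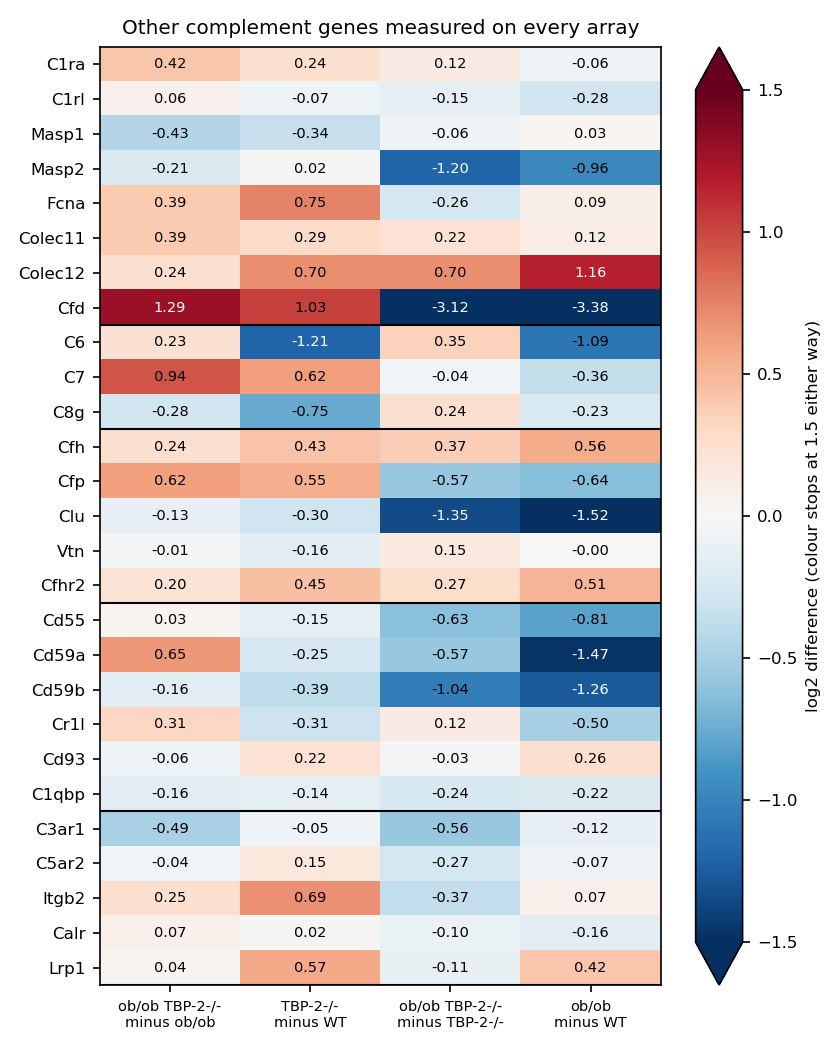
Log2 differences (75th percentile scaling, printed in each cell, colour stopping at 1.5 either way) of the 27 other complement genes measured on every array. Lines divide recognition molecules and proteases, terminal components, fluid-phase regulators, membrane regulators (with Cd93 and C1qbp) and receptors, in that order. Cfd has 1.29 and 1.03 on loss of Txnip and -3.12 and -3.38 with the ob genotype, and small values change sign under spike-in scaling, whose shifts are -0.51, 0.25, -0.11 and 0.64 in the order of the columns.

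Most macrophage, fibroblast and adipocyte markers were higher on loss of Txnip, like most of the complement genes. Of 19 macrophage markers, 18 of 18 measured were higher in TBP-2-/- than in WT muscle (median 0.56). In ob/ob TBP-2-/- against ob/ob muscle 19 of 19 were higher (median 0.43, but -0.08 with spike-in scaling, which gave -0.48 over all genes). Their summed scaled signal was 98.9 on TBP-2-/- against 74.3 on WT, and 87.8 on ob/ob TBP-2-/- against 73.3 on ob/ob. In the comparisons by ob genotype the macrophage medians were -0.18 (ob/ob TBP-2-/- minus TBP-2-/-) and -0.06 (ob/ob minus WT). Lyz2, Lyz1 and Ctss, the brightest of the list, were higher in TBP-2-/- than in WT muscle by 0.34, 0.38 and 0.76. C1q chains are themselves macrophage genes and were kept off that list. In bulk tissue, fewer cells of a type and less RNA per cell cannot be told apart.

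Fibroblast markers, 12 of 12 measured, were also higher on both backgrounds, with medians of 0.42 (summed signal 1074 on TBP-2-/- against 895 on WT) and 0.35 (1326 on ob/ob TBP-2-/- against 1044 on ob/ob), the second of which spike-in scaling would turn below 0. Gsn, Dcn and Col1a2 are the brightest of them, and were higher by 0.07, 0.12 and 0.93 in TBP-2-/- against WT muscle. In ob/ob TBP-2-/- against ob/ob muscle they were higher by 0.07, 0.37 and 1.16, where the spike-in shift would turn Gsn and Dcn below 0. Adipocyte markers were higher in 10 of 10 in TBP-2-/- against WT (median 0.71, summed signal 304 against 233) and in 8 of 10 in ob/ob TBP-2-/- against ob/ob muscle (median 1.02, summed signal 294 against 212). Fabp4, the brightest adipocyte gene, was higher by 0.35 and 0.76 in those comparisons. Lpl and Cd36, the next brightest, were higher by 0.26 and 0.71 in TBP-2-/- against WT muscle. In ob/ob TBP-2-/- against ob/ob muscle they were the 2 genes that were lower, by -0.60 and -0.03. Adrb3 was not well above background on any array. All 13 skeletal muscle markers were lower in TBP-2-/- than in WT muscle (median -0.21), where 39.7% of all genes were higher. In ob/ob TBP-2-/- against ob/ob muscle 9 of 13 were higher (median 0.16). All 13 were lower in ob/ob than in WT muscle (median -0.16), and 8 of 13 higher in ob/ob TBP-2-/- than in TBP-2-/- muscle (median 0.18). The spike-in shift would turn all of these medians but the last. The part of muscle fibres, macrophages, fibroblasts and fat cells in the complement differences was not tested.

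For hepatocytes the defining genes Apoa1, Ttr, Fga and Fgb were not well above background on any array, and Alb, Apob and Ahsg were so on ob/ob TBP-2-/- alone. Trf and Cyp2e1 were the brightest of the other 3 of 10. The summed signal of the list's genes above background on an array was 5.07 on TBP-2-/- against 2.96 on WT, and 3.89 on ob/ob TBP-2-/- (Alb, Apob and Ahsg included) against 2.28 on ob/ob. Neutrophil markers were measured in 2 of 8 (S100a9 and Mpo), with medians of -0.06 in TBP-2-/- against WT and -0.24 in ob/ob TBP-2-/- against ob/ob muscle, and Camp, Ngp, Elane and Csf3r were not well above background on any array. Of 7 endothelial markers 6 were higher in TBP-2-/- against WT (median 0.21) and 3 in ob/ob TBP-2-/- against ob/ob muscle (median -0.16). All 5 mast cell markers were higher in ob/ob TBP-2-/- than in ob/ob muscle (median 0.69), and their median was 0.07 in TBP-2-/- against WT. Of 10 lymphocyte markers 5 were measured. On loss of Txnip 3 were higher and 2 lower on the lean background (median 0.08), and 4 higher and 1 lower on the ob/ob background (median 0.22). With the ob genotype 3 were lower and 2 higher without Txnip (median -0.33), and 4 lower and 1 higher with it (median -0.28). Among them, Ighm had 11.3 on ob/ob TBP-2-/-, 57.2 on TBP-2-/-, 2.29 on ob/ob and 38.4 on WT. Cd3e and Cd4 were lower in TBP-2-/- than in WT muscle, by -0.16 and -0.18. Of the blood markers 3 were measured and 3 higher in each comparison by Txnip genotype, with medians of 0.24 on the lean and 0.15 on the ob/ob background. The shift of spike-in scaling is larger than the blood and endothelial medians in these comparisons and would turn the ob/ob blood and the neutrophil lean medians.

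Lists of genes that often move with complement were measured beside it. Of 28 interferon response genes 22 of 27 measured were higher in TBP-2-/- than in WT muscle (median 0.19), where 39.7% of all genes were. In ob/ob TBP-2-/- against ob/ob muscle 15 of 26 were higher, near the 54.4% of all genes, with a median of 0.06. With spike-in scaling that median was -0.45, against -0.48 over all genes. With the ob genotype 26 of 27 were lower without Txnip (median -0.68) and 24 of 26 with it (median -0.57, but 0.07 with spike-in scaling). Oas1a, an antiviral enzyme, had -1.29 in both, and Ifit3, Gbp3 and Gbp4 were lower in ob/ob than in WT muscle by -1.24, -1.09 and -1.09.

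Of 13 measured genes of the acute phase, NF-kappaB and Il6 responses, 10 were higher with the ob genotype, both without and with Txnip. The list's median was 0.28 without Txnip, against 0.04 over all genes, and 0.33 with Txnip, against -0.04 over all genes. On loss of Txnip 10 of 13 were higher on the ob/ob background, where 54.4% of all genes were. The list's median there was 0.37, which the spike-in shift would turn below 0. On the lean background 8 of 13 were higher (median 0.10), where 39.7% of all genes were. Hp (haptoglobin) had a scaled signal of 35.3 on ob/ob TBP-2-/-, 6.17 on TBP-2-/-, 14.7 on ob/ob and 4.25 on WT. Cebpd, a C/EBP transcription factor, had 90.5 on ob/ob TBP-2-/-, 44.7 on TBP-2-/-, 23.3 on ob/ob and 19.9 on WT. Both arrays without Txnip were above both arrays with it for Cebpd, by 1.96 on the ob/ob and 1.17 on the lean background. Orm1 and Serpina3n were higher in ob/ob TBP-2-/- than in TBP-2-/- muscle by 2.56 and 2.06. The genes Il6, Tnf, Il1b and Lcn2 were not well above background on any array.

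Other genes of the C1q domain family, 15 measured in each of the lean comparison and the comparisons by ob genotype, were higher in 12 of 15 in TBP-2-/- against WT muscle (median 0.17). Of 16 measured in ob/ob TBP-2-/- against ob/ob muscle 12 were higher (median 0.31, which the spike-in shift would turn below 0), with 11 of 15 in ob/ob TBP-2-/- against TBP-2-/- and 12 of 15 in ob/ob against WT muscle (median 0.39 in each). Adipoq (adiponectin) had 18.5 on ob/ob TBP-2-/-, 10.9 on TBP-2-/-, 6.98 on ob/ob and 4.42 on WT. C1qtnf7 was higher in TBP-2-/- than in WT muscle by 1.19, while Mmrn1, an endothelial and platelet protein, was lower by -1.27. Cbln2 was higher in ob/ob TBP-2-/- than in TBP-2-/- muscle by 1.18.

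The genes with the most similar profile over the 4 arrays were sought among 14928 genes by the root mean square difference of log2 values centred on each gene's mean, which describes 4 arrays and nothing more. Nearest to the mean of the 3 C1q chains were Nav1 (0.0148), Trib2 (0.0230) and Gpat3 (0.0323). Nearest to C4b were Kif5c (0.0642), Col14a1 (0.0703) and Pi16 (0.0825), and Cfb was the 22nd nearest of all genes. Col14a1, a fibril-associated collagen, was also nearest to Cfb (0.0472), before Prc1 and Mgll, and C2 and C4b were the 27th and 28th nearest to Cfb. C2 was nearest to Jaml (0.0221), Engase and Serpinb1a. The other members had distant neighbours among complement genes. C3 was nearest to Samd5 (0.0179), Timd4 and Cd274, C1s to Arhgap9 (0.0156), Ccdc17 and Rad51d, and Serping1 to Cdh11 (0.0146), Smim14 and Kctd12b.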

How the data were processed

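Total RNA of skeletal muscle, 1 Cy3-labelled sample per genotype, was hybridised with Agilent spike-in RNA to 4 arrays, per the labels' protocols. The spot intensity values were made by the authors with Agilent Feature Extraction 9.5.3.1, per the file headers, as background-subtracted processed signals. The authors also deposited a table of log2 values, which a comparison with the scanner files showed to be scaled at the 75th percentile and centred on each probe over the arrays (Pearson r across probes 0.99984, 99.9% of values within 0.01). It was used as an alternative.

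From the scanner files, outlier spots were left out (59 to 110 an array), and processed signals were divided by the 75th percentile of their array and turned to log2. Replicate spots were averaged, and a gene was represented by its brightest probe. Probes outside the 9 genes were named through RefSeq accessions (24363 probes), symbols (6301) or synonyms (2426), and otherwise kept the file's name (8072). Probe positions are on mm8, from the array annotation. A difference was taken for genes that were well above background on its 2 arrays, and a gene above it on 1 array has a bound ("at least"). Standard errors come from the scanner's error model and were not divided by the number of spots. The additive fit used limma 3.58.1 in R 4.3.3 (lmFit, eBayes) on genes that passed background on 2 or more arrays, and was tested on simulated data. Precision is limited by the number of arrays.

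The 9 genes and all gene lists were chosen with earlier results of these data known. Named are all 9 members, at most 4 genes of each pathway, neighbour and response list that were 1.5-fold or more different in some comparison, at most 3 of the brightest markers of a cell type, the 3 nearest profiles, and Txnip and Lep. Chromosome 17 neighbours, markers given as not above background, Cdc42, Itgam and Ighm fall outside the rule and were chosen after their values were seen. The alternatives were normexp background correction (offset 50), quantile, median and spike-in scaling, the median of a gene's probes, the authors' table, 2 background filters and an intensity trend.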

Additional observations from a re-analysis of the deposited data

Results flagged for a closer look

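Several genes had effects of opposite sign on the 2 backgrounds, and with 1 array a genotype none of these differences between effects was tested. The ob genotype went with a lower signal without Txnip (ob/ob TBP-2-/- minus TBP-2-/-) and a higher one with Txnip (ob/ob minus WT) for C1qa, C1qb, C1qc, C4b and Cfb. The difference between the effects, the first less the second, was -0.53 for C1qa, -0.45 for C1qb, -0.21 for C1qc, -0.53 for C4b and -0.18 for Cfb on the log2 scale. The effect with Txnip was within its error of ± 0.20 for all 5 genes (0.03 to 0.19), as was that without Txnip for Cfb (-0.04) and C1qc (-0.18). Serping1 was lower without Txnip on the ob/ob background (-0.03) and higher on the lean one (0.23), a difference of -0.26 with an error of ± 0.29.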

How the results depend on the processing

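Of 36 differences (9 genes, 4 comparisons), 33 kept their sign under every alternative other than spike-in scaling, and 6 changed sign under spike-in scaling. The number of genes 2-fold or more higher in TBP-2-/- against WT muscle, 1 in the text, was 0 with normexp correction (0.519% of all genes) or median scaling (1.43%). It was 3 with spike-in scaling (3.31% of all genes). The number 1.5-fold or more higher, 5 in the text, was 3 with median scaling (4.43% of all genes). In ob/ob TBP-2-/- against ob/ob muscle the number 1.5-fold or more higher, 2 in the text, was 0 with spike-in scaling (1.43% of all genes). In ob/ob against WT muscle, with 0 genes 1.5-fold or more higher and 1 lower in the text, spike-in scaling gave 7 higher and 0 lower, and the median of a gene's probes gave 0 lower. In that comparison spike-in scaling adds 0.64 to every gene's log2 difference. The median of C3 probes takes in its dim probe, which had -0.23 ± 0.62 there and was not well above background on ob/ob or WT. The additive fit, which called 0 complement genes in the text, called 3 for loss of Txnip with normexp correction and 2 with an intensity trend, and 1 for the ob genotype with normexp correction. Over all genes it called 17 for loss of Txnip, against 473 with normexp correction, 240 with the trend, 102 with spike-in scaling, 52 for genes above background on all 4 arrays, 8 with quantile scaling and 7 without a background filter. For the ob genotype it called 54, against 795, 565, 238, 165, 0 and 0 in the same order of settings, and 21 with the median of a gene's probes. No array could be left out in turn, since the additive fit then has no residual degrees of freedom. No paired analysis was possible because each genotype has 1 array. Genes near background, such as C7 and C6, are limited by signal.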

Other observations

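As a look at spatial faults on the arrays, 332 values were taken from spots next to those of the 9 brightest complement probes, over the 4 arrays. Of these, 3 were 2-fold or more away from the same spot's median over the arrays.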
